A study of Mus musculus with 12 samples.

Results

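A set of 9 genes of epithelial adhesion and cell junctions was examined for N6-methyladenosine (m6A) in mouse spermatogonial stem cells (SSCs) and in the neural stem cell-like cells (iNSCs) made from them. The 9 genes were Epcam, Cdh1, Cldn4, Dsp, Itga6, Cd9, Krt8, Krt18 and Esrp1, out of 21900 protein-coding genes in the gene table used. They were named for their function, but they were selected on a list whose peak counts in these same libraries were already known. The number, position, width and score of their peaks are therefore given as a description, with no test. A member was taken to hold a peak when a listed peak overlapped its gene span by at least 1 base, and 8 of the 9 genes held at least 1 peak.

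m6A is a methyl mark on adenosines inside mRNA, and here it was mapped by pulling down fragmented poly(A) RNA with an m6A antibody and listing the enriched intervals, called peaks. SSCs, the germ cells that sustain sperm production, had been cultured on STO fibroblast feeders with GDNF, LIF, EGF and basic FGF in the medium. iNSCs had been obtained from such cells by plating on laminin, 1 µM retinoic acid for 24 h, and then a neural medium with basic FGF and SB431542, which inhibits TGF-β receptor kinases. Differential plating preceded that step, whereas removal of feeders before SSC RNA was taken, and the strain and age of the mice, are not given in the labels. Each group had 3 immunoprecipitation libraries with 1 peak list each, numbered here as SSC 1 to 3 and iNSC 1 to 3. Separate cultures are not stated for the numbered libraries, so the spread between them may be technical. Without the inputs, which were not analysed here, an absent transcript and an unmethylated one cannot be told apart, and neither can fewer cells of a type and less RNA per cell.

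Epithelial cells hold together through several kinds of contact. E-cadherin (Cdh1) forms adherens junctions, claudins seal tight junctions, and desmoplakin (Dsp) ties desmosomes to keratin filaments, of which keratin 8 (Krt8) and keratin 18 (Krt18) form a pair. EpCAM (Epcam), integrin α6 (Itga6) and the tetraspanin CD9 (Cd9) are surface proteins of many epithelia that are also used as surface markers of spermatogonial stem cells in the testis. ESRP1 (Esrp1) is an RNA-binding protein that directs the epithelial pattern of alternative splicing.

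The cell type field of the labels named the other cell type for 12 of 12 samples, and groups were taken from the titles, with which the source names go. Most germ cell markers with a peak went with the titles, but not all. Ddx4 held 5, 5 and 3 peaks in the SSC lists and Zbtb16 held 2, 2 and 4, and neither held a peak in an iNSC list. Lhx1 held 2 peaks in each SSC list, and Id4 and Sall4 held 1, with none in iNSCs. Etv5, however, held 1, 0 and 2 in SSCs and 2, 3 and 2 in iNSCs, and the only Gfra1 peak was in iNSC 3. Neural stem cell markers were mixed. Pax6 held 3, 4 and 4 peaks in the iNSC lists alone. Sox2, with 1 peak in each SSC list, and Msi1, with 2, 1 and 1, held none in iNSCs. Nes held a peak in all 6 lists, and Sox1, Hes5 and Fabp7 in none. Of these 7 neural stem cell markers, 3 held a peak in each SSC list and 2 in each iNSC list. Of 10 spermatogonial markers, 5 to 8 held a peak in an SSC list and 1 to 2 in an iNSC list. Of 10 epithelial markers, which include 6 of the 9 genes, 5 to 7 held a peak in an SSC list and 0 in each iNSC list, with 10 to 17 summed peaks per SSC list and Cldn7 and Krt18 in no list. Of 8 testis somatic markers, 3 to 5 held a peak in an SSC list and 1 in each iNSC list, with Gata4 in 3 SSC lists and Star, Cyp17a1 and Insl3 in no list. Of 9 fibroblast markers, 3 to 8 held a peak in an SSC list and 3 to 4 in an iNSC list, with 8 in SSC 3, and Fap in no list; their summed peaks were 5 to 14 and 7 to 11. The part of these other cells in the results below was not tested. The lists held 19728 to 27597 peaks in SSCs and 13913 to 16060 in iNSCs. They give no read counts, so the depth is unknown. Positions are on GRCm38, whose gene edges the peaks follow, although the submitters' processing notes name mm9.

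No genome sequence under the peaks was used, and the sequences shown are the promoters of the 4 genes that held a peak in all SSC lists and in no iNSC list. They are shown because the 4 genes share that pattern, and because E-boxes in promoters of epithelial genes are the binding motif of the repressors Snail and ZEB. Each is the 250 bases before the gene start in RefSeq's GRCm38.p6 table, printed from 5′ to 3′ on the gene's strand, with every CANNTG in capitals. Epcam is chr17:87635729-87635978 on the plus strand, Cldn4 is chr5:134946935-134947184 on the minus strand, Dsp is chr13:38151044-38151293 on the plus strand, and Krt8 is chr15:102004343-102004592 on the minus strand.
Epcam: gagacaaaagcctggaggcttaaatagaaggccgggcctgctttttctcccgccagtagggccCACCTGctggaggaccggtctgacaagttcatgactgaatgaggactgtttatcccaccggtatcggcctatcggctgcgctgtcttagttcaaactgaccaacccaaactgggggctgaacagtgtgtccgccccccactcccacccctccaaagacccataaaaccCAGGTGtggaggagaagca
Cldn4: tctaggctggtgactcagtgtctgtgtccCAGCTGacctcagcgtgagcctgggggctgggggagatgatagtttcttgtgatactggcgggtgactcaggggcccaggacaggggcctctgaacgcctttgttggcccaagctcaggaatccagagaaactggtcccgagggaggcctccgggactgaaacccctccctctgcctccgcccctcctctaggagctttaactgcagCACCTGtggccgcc
Dsp: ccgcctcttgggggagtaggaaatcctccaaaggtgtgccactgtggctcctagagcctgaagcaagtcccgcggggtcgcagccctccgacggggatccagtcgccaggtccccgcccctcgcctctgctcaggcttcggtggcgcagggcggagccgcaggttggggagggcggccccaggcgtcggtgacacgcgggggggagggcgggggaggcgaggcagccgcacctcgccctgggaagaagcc
Krt8: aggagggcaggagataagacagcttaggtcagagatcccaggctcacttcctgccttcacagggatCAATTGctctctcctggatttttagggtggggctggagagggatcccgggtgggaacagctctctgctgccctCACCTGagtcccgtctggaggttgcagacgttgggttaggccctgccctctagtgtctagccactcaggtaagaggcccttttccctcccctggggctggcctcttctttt
Epcam carried 2 motifs of the form CAGGTG or its reverse complement CACCTG, the E-box form preferred by Snail and ZEB proteins. Cldn4 and Krt8 carried 1 each beside 1 other CANNTG, and Dsp carried no CANNTG. The table held promoters of 6 of the 9 genes, and CAGGTG or CACCTG was also present in those of Cd9 and Krt18. Among 21263 promoters of protein-coding genes, 16.9% held CAGGTG or CACCTG and 62.8% held CANNTG within the same length. A match of letters is a description and not a binding site, and a link between these motifs and the peaks was not tested.

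The 9 genes together held 22, 18 and 18 peaks in the SSC lists (19.3 ± 2.31, SD, n = 3) and 1, 2 and 2 in the iNSC lists (1.67 ± 0.577, n = 3). All 5 iNSC peaks lay in Itga6. SSC lists were longer, and per 1000 listed peaks the members held 0.812 ± 0.0938 in SSCs and 0.107 ± 0.0305 in iNSCs. Epcam, Cldn4, Dsp and Krt8 held a peak in all 3 SSC lists and in no iNSC list, a pattern called SSC-only below. Of 12906 protein-coding genes with at least 1 peak, 11.4% were SSC-only, and because the members were chosen with their counts known nothing is read from that comparison. Cdh1, Cd9 and Esrp1 held a peak in 1 or 2 SSC lists and in no iNSC list, as did 28.7% of all genes with a peak. Itga6 held a peak in all 6 lists, as did 30.6% of genes. Krt18 held none in any list, like 41.1% of all 21900 protein-coding genes. No member held peaks in the iNSC lists alone, a pattern found in 2.13% of genes with a peak. For 5 members (Epcam, Cldn4, Dsp, Itga6 and Krt8) the lowest SSC number of peaks was above the highest iNSC number, as it was for 16.8% of genes with a peak.

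**Figure D1:**
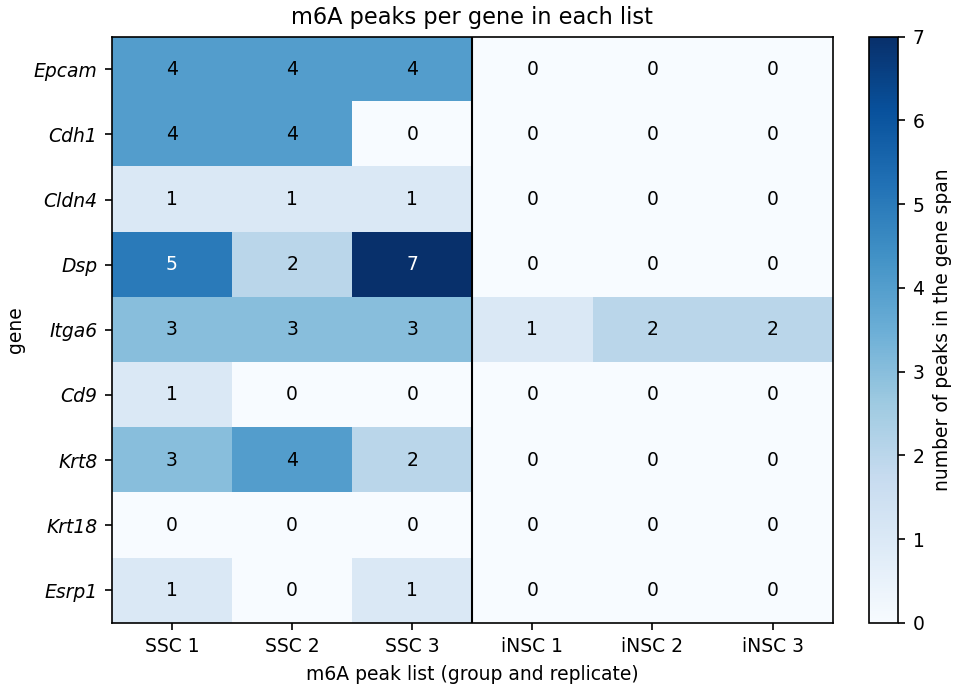
Number of m6A peaks in the span of each of the 9 genes (rows) in each of the 6 peak lists (columns), with darker blue for more peaks. Itga6 is the only row with peaks to the right of the line, and the numbers run from 0 to 7.

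Peaks of the 9 genes were spread over the whole range of scores. Each peak has a score from the authors' peak caller, which is read here as a percentile within its own list, where higher is better. Scores of 3100 or more are treated as tied at the top. That tie lies at 96.2 to 98.1 in the SSC lists and at 91.2 to 92.5 in the iNSC lists. Percentiles are therefore not on the same scale in SSCs and iNSCs. The 58 SSC peaks had a median percentile of 45.1 and a median width of 204 bases, against 200 bases for all SSC peaks. With only the 13913 best peaks of each list kept, which is the length of the shortest list, 2 members remained SSC-only, namely Epcam and Dsp. The difference in peaks per list then fell from 17.7 to 8, while 6.98% of genes with a peak were SSC-only. The lowest score kept was 156 in SSC 1, 110 in SSC 2 and 142 in SSC 3, and 50.02, 83.8 and 82.7 in the iNSC lists, so the reduction falls mostly on SSC lists.

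**Figure D2:**
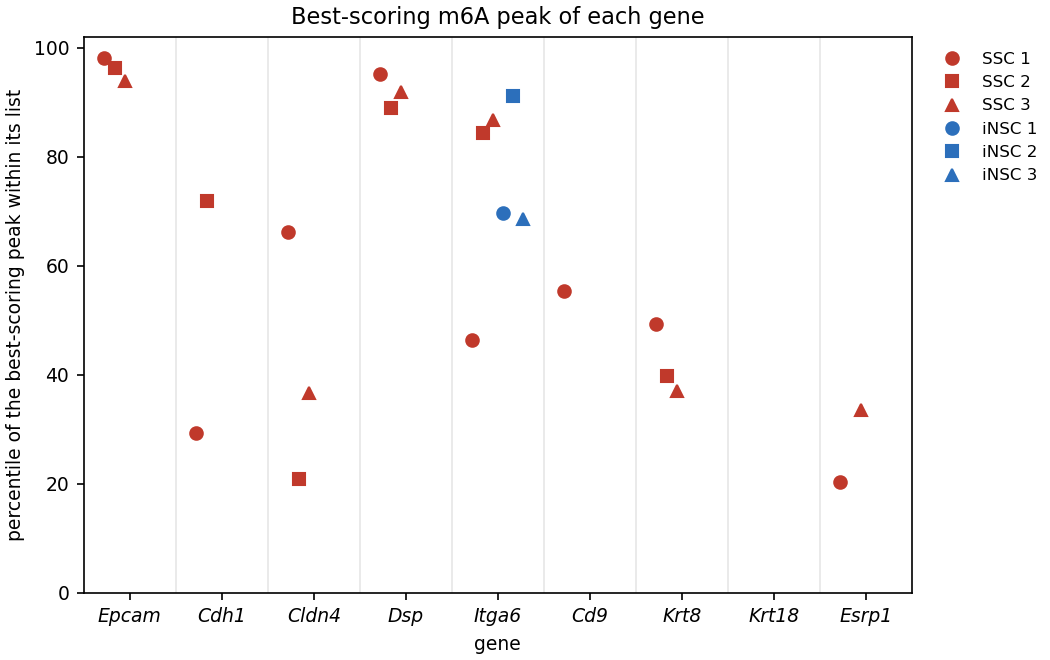
Percentile, within its own list, of the best-scoring m6A peak of each gene (vertical axis) for SSC lists in red and iNSC lists in blue, with 1 marker shape per replicate and no marker where a list held no peak. Epcam and Dsp lie above 88 in the 3 SSC lists, while Krt8 stays below 50.

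Epcam, an adhesion protein of epithelial cells and a surface marker in stem cell sorting, had the highest best percentile of the 9 genes in each SSC list. It spans chromosome 17 from 87635979 to 87651127 and held 4 peaks in each SSC list and none in any iNSC list. Its best peaks had percentiles of 98.1 in SSC 1, 96.2 in SSC 2 and 93.8 in SSC 3. The SSC lists were thus all high, and the groups did not overlap.

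The Epcam peaks fell on 5 separate sites, of which 3 were listed in all 3 SSC lists. The site at the 3′ end of the span, from 87650428 to 87651127, was 700 bases wide in SSC 1 and SSC 2 and 530 bases in SSC 3, with percentiles of 98.1, 96.2 and 92.5. Just upstream, a site of only 45 bases from 87649614 to 87649658 had percentiles of 94.3, 96.2 and 93.8. A site of 66 bases from 87641434 to 87641499 had percentiles of 77.6, 47.6 and 83.5. Both narrow sites had the same first and last base in the 3 lists. A site of 204 bases from 87646137 to 87646340 was listed in SSC 2 and SSC 3, and a site from 87643542 to 87643643 in SSC 1 alone. Whether shared edges are exon borders was not tested, since exon models were not used here.

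Cdh1, the cadherin of epithelial adherens junctions, was less uniform. It held 4 peaks in SSC 1, 4 in SSC 2 and none in SSC 3 or in any iNSC list, so 1 SSC list looked like the iNSC lists. Its 8 peaks fell on 7 sites, and the only site shared by both lists lay from 106668406 to 106668866 on chromosome 8, within 2000 bases of the 3′ end of the span. That site had a percentile of 26.6 in SSC 1 and 71.8 in SSC 2. The other 6 sites were listed once each, with percentiles of 0.165 to 29.4. At equal list length Cdh1 kept only the SSC 2 peak of the shared site.

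Cldn4 encodes a claudin of tight junctions and has the shortest span of the 9 genes, 1.81 kb on chromosome 5 from 134945123 to 134946934. Each SSC list held 1 Cldn4 peak and the iNSC lists 0, with percentiles of 66.2, 20.9 and 36.7. Although the gene counted as SSC-only, its 3 peaks did not share a site. SSC 1 and SSC 3 overlapped in the 3′ part of the span, from 134945124 to 134946141, whereas the SSC 2 peak covered the 5′ end from 134946308 to 134946934. No base of Cldn4 was therefore listed in all SSC lists. At equal list length Cldn4 kept a peak in SSC 1 alone.

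Dsp, whose protein links desmosomes to keratins, held the highest number of peaks in a single list. There were 5 peaks in SSC 1, 2 in SSC 2 and 7 in SSC 3 (4.67 ± 2.52, SD, n = 3), and none in the iNSC lists. The best percentiles were 95.1, 88.9 and 91.8. The number of peaks thus varied between SSC lists, while the best peak ranked high in each.

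All SSC lists shared 2 Dsp sites on chromosome 13, which were also the widest of the gene. The first, from 38191361 to 38193655, was 2139, 2204 and 2295 bases wide and had the best percentile of the gene in each list. The second, from 38194696 to 38196150, had percentiles of 88.0, 86.3 and 82.6, and was a pair of entries in SSC 1 and a single entry in SSC 2 and SSC 3. The remaining 7 sites were listed in 1 SSC library each, with percentiles of 5.45 to 49.2. The shared sites lay 40067 and 43402 bases from the 5′ end of a span of 47.3 kb, upstream of its last 2000 bases.

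**Figure D3:**
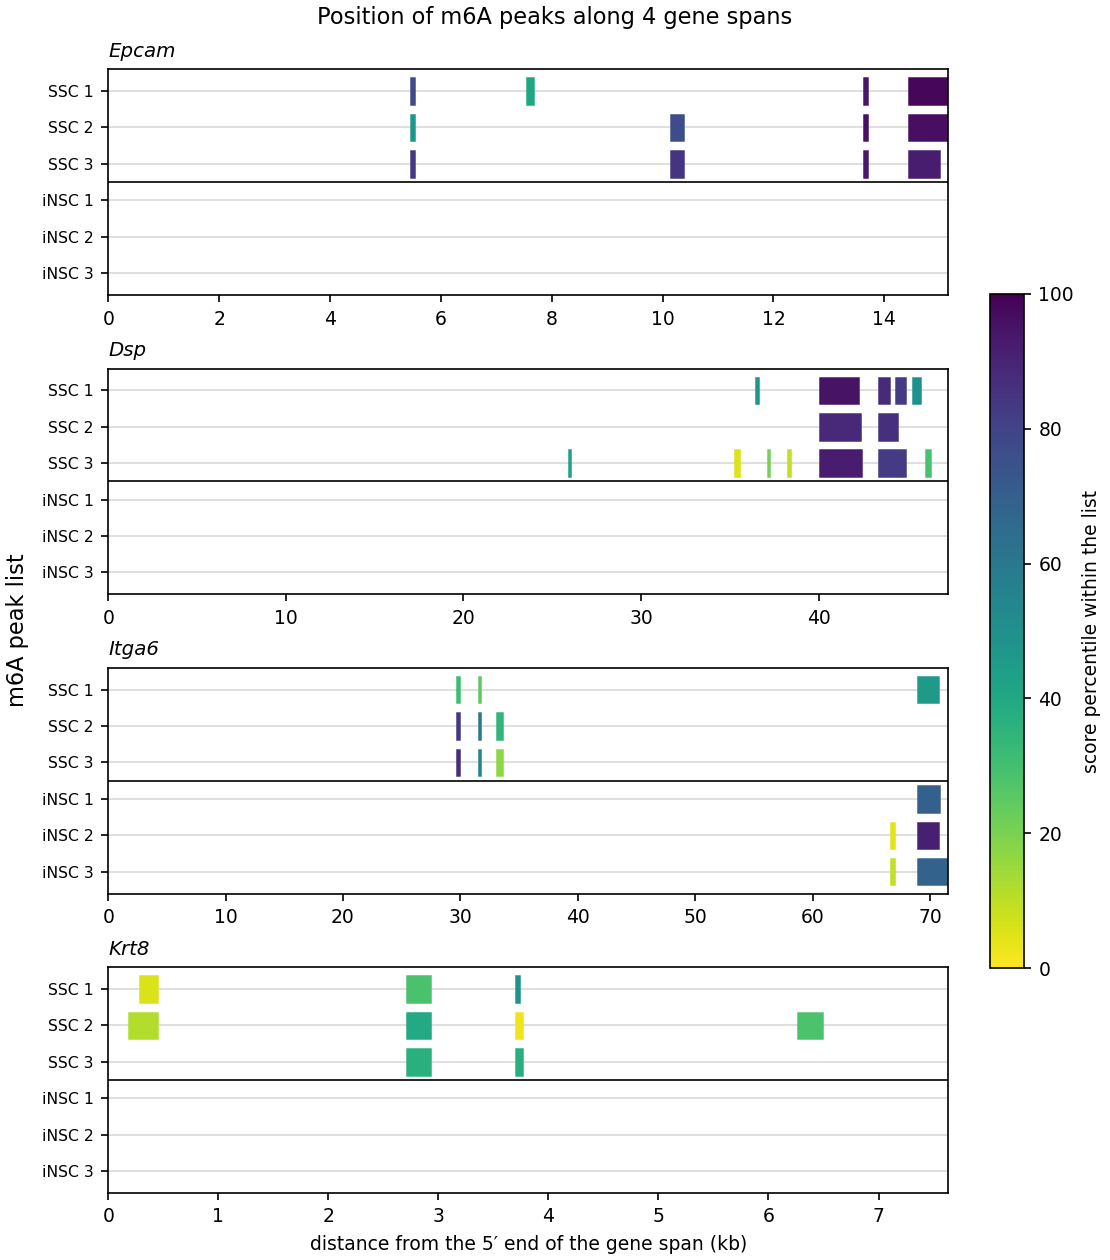
m6A peaks of Epcam, Dsp, Itga6 and Krt8 along the gene span (horizontal axis, kb from the 5′ end) in the 6 lists (rows), coloured by score percentile within the list, with peaks drawn to scale apart from an outline that widens the narrowest. Epcam, Dsp and Krt8 have marks in SSC rows alone, and Itga6 has SSC marks near 30 kb and iNSC marks near 70 kb.

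Itga6, a laminin receptor subunit, held a peak in every list, but mostly at different places in SSCs and iNSCs. The SSC lists held 3 peaks each and the iNSC lists 1, 2 and 2. The best percentiles were 46.5, 84.4 and 86.7 in SSCs and 69.7, 91.2 and 68.6 in iNSCs, so the groups overlapped in rank within the list. The value in iNSC 2 is the tie at the top of that list.

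In SSCs most Itga6 peaks lay in the middle of the span on chromosome 2. A site of 125 bases from 71816630 to 71816754 was listed with the same edges in all 3 SSC lists, with percentiles of 31.2, 84.4 and 86.7, and in no iNSC list. A second, of 80 bases from 71818481 to 71818560, also had the same edges in all 3 SSC lists and none in iNSCs, with percentiles of 24.6, 59.8 and 55.4. A weaker one, from 71819999 to 71820438, was listed in SSC 2 and SSC 3. SSC 1 stood below the other SSC lists at both shared sites.

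In iNSCs the Itga6 peaks lay toward the 3′ end of the span. The site from 71855854 to 71858272 was listed in all 3 iNSC lists, 1799, 1675 and 2419 bases wide, with percentiles of 69.7, 91.2 and 68.6. Over all listed peaks, the median width was 396 bases in iNSCs and 200 in SSCs. SSC 1 also held this Itga6 site, 1678 bases wide and at percentile 46.5, and it was the only one of the 35 sites of the 9 genes listed in both cell types. A weaker site from 71853534 to 71853862, 4565 bases from the 3′ end, was listed in iNSC 2 and iNSC 3 at percentiles of 4.38 and 9.55. Of the 3944 genes with a peak in all 6 lists, 4.54% had at least 2 sites that were listed in 3 SSC and 0 iNSC lists, as Itga6 had. At equal list length Itga6 lost its SSC 1 peaks, whose best score of 143 was below the 156 kept there.

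Cd9, the tetraspanin, held 1 peak in SSC 1 and none in the other 5 lists. The peak covered 461 bases at the 3′ end of the span, from 125460266 to 125460726 on chromosome 6, at percentile 55.3. The other SSC lists were like the iNSC lists for this gene.

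The keratin pair differed in its peaks. Krt8 held 3, 4 and 2 peaks in the SSC lists (3.00 ± 1.00, SD, n = 3) and none in iNSCs, whereas Krt18 held none in any list. Both lie on chromosome 15, Krt8 from 101996711 to 102004342 and Krt18 from 102028216 to 102032026. All 9 Krt8 peaks were in the weaker-scoring part of their lists, with a best percentile of 49.2 in SSC 1, 39.7 in SSC 2 and 36.9 in SSC 3. Krt8 thus was SSC-only with low-ranked peaks, and at equal list length it kept 1 peak, in SSC 2.

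Krt8 had 2 sites in all SSC lists. That from 102001417 to 102001625 was 209 bases wide with the same edges in each, at percentiles of 28.5, 39.7 and 36.5. The other, from 102000580 to 102000640, was at 49.2, 2.54 and 36.9. A site near the 5′ end, from 102003898 to 102004150, was listed in SSC 1 and SSC 2 at percentiles of 5.62 and 11.7. The gene has an annotated pseudogene copy, Krt8-ps on chromosome 7, and Cd9 has one, Cd9-ps on the same chromosome. Neither copy held a peak in any list, and how reads were shared between copies was not tested.

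Esrp1, the splicing regulator, held 1 peak in SSC 1 and 1 in SSC 3, at percentiles of 20.3 and 33.5, and none elsewhere. They did not overlap, as they lay from 11359558 to 11359956 and from 11338722 to 11338831 on chromosome 4. Both fell below the scores kept at equal list length.

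Over all 9 genes, 63 peaks fell on 35 sites, and every peak was on 1 strand per gene. In all, 9 sites were listed in 3 SSC and 0 iNSC lists, namely 3 in Epcam and 2 each in Dsp, Itga6 and Krt8, and 5 of these 9 had the same edges in the 3 lists. Another 19 sites were listed in a single SSC library and in no iNSC list. Within the last 2000 bases of the span lay the ends of 16 of the 58 SSC peaks (27.6%) and 3 of the 5 iNSC peaks. The 16 include the 3 Cldn4 peaks, which count wherever they lie because that span is shorter than 2000 bases. The spans of the 9 genes had a median length of 34.5 kb, against 26.6 kb for all genes with a peak.

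Genes with the most similar ranking over the 6 lists were found by the smallest Euclidean distance between best percentiles, among 12472 genes (clone and predicted names were left out). A list with no peak in a gene counted as 0. Closest to Epcam was Zeb1, which encodes a repressor of epithelial genes, at a distance of 0.258 percentile points. Zeb1 held 7, 5 and 7 peaks in SSCs, with percentiles of 98.1, 96.2 and 94.1, and none in iNSCs. The SSC 1 and SSC 2 values are ties at the highest score, and the iNSC values are 0 in both genes for want of a peak. The distance therefore comes from SSC 3 alone. Closest to Dsp was Fnbp1l (distance 1.39), to Krt8 Sox21 (4.53) and to Cldn4 Sptbn4 (4.67). Fnbp1l and Sox21 also had no iNSC peak, so their distances come from the SSC lists alone. Sptbn4 was not SSC-only, as it held 1 peak in iNSC 3 at percentile 1.77. Itga6 had no close match, with Lysmd1 nearest at 16.1.

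Among 90 other genes of cell junctions, adhesion and epithelial regulation, 69 held a peak. Of these 69 genes, 12 were SSC-only (17.4%), against 11.4% of all genes with a peak. None was iNSC-only, 24 held a peak in 1 or 2 SSC lists alone and 22 in all 6 lists. Over all genes with a peak, the shares were 2.13%, 28.7% and 30.6%. The median difference in peaks per list, SSC minus iNSC, was 0.667 over the 69 genes and 0.333 over all genes with a peak. The list was drawn up with earlier results of these data known and is described without a test. Not all of its genes are particular to epithelia, and the 12 include Cdh2 and Cdh5, the N-cadherin and endothelial cadherin genes. At equal list length 7 of the 12 were SSC-only.

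The tight junction group held 4 of the SSC-only genes, which was 25.0% of its 16 genes with a peak. Over all genes with a peak, 11.4% were SSC-only. Cgnl1, which encodes paracingulin, held 14, 15 and 15 peaks in SSCs, and its relative Cgn, encoding cingulin, held 4, 9 and 9. Ocln, encoding occludin, held 4, 1 and 5, and the polarity scaffold gene Patj held 8, 8 and 3. None of these had a peak in an iNSC list. The scaffold gene Tjp1, by contrast, held peaks in all 6 lists, with 8, 6 and 4 in SSCs and 5, 6 and 7 in iNSCs, where the groups overlapped. Its relative Tjp3 held 2, 0 and 3 in SSCs and 0, 0 and 1 in iNSCs.

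Among the partners of Cdh1, the α-catenin gene Ctnna1 held 3, 9 and 4 peaks in SSCs and 1, 3 and 1 in iNSCs. The p120-catenin gene Ctnnd1 held 1, 1 and 2 in SSCs and 2 in each iNSC list, and the β-catenin gene Ctnnb1 held 1 in each of SSC 2 and SSC 3. Plakoglobin (Jup) held 1 in SSC 1 and 2 in SSC 3. Cdh2, the N-cadherin gene, was SSC-only with 11, 5 and 6 peaks, so neither the E- nor the N-cadherin gene held a peak in an iNSC list. Cdh5, the endothelial cadherin gene, was SSC-only with 1 peak per list, and Nectin3 with 5, 2 and 3.

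Other groups held fewer SSC-only genes, but they also had fewer genes with a peak. Among their genes with a peak, the SSC-only share ran from 0% to 22.2%. Desmosome genes had 1 of 7 with a peak, Evpl (1, 1 and 2 peaks), which encodes envoplakin. The integrin and laminin group had 1 of 12, Lama3 (8, 2 and 9 peaks), a laminin chain bound by integrins containing α6. The β subunits that pair with integrin α6 were not SSC-only. Itgb1 held 1, 4 and 2 peaks in SSCs and 1, 1 and 0 in iNSCs, and Itgb4 held 1 in each of SSC 2 and SSC 3. The transcription and splicing group had 2 of 9, Grhl3 (2, 1 and 2 peaks) and Ovol2 (1, 1 and 3 peaks), while Esrp2, the relative of Esrp1, held none in any list. The protease gene St14 held 2, 1 and 1. No other keratin or tetraspanin gene on the list was SSC-only.

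**Figure D4:**
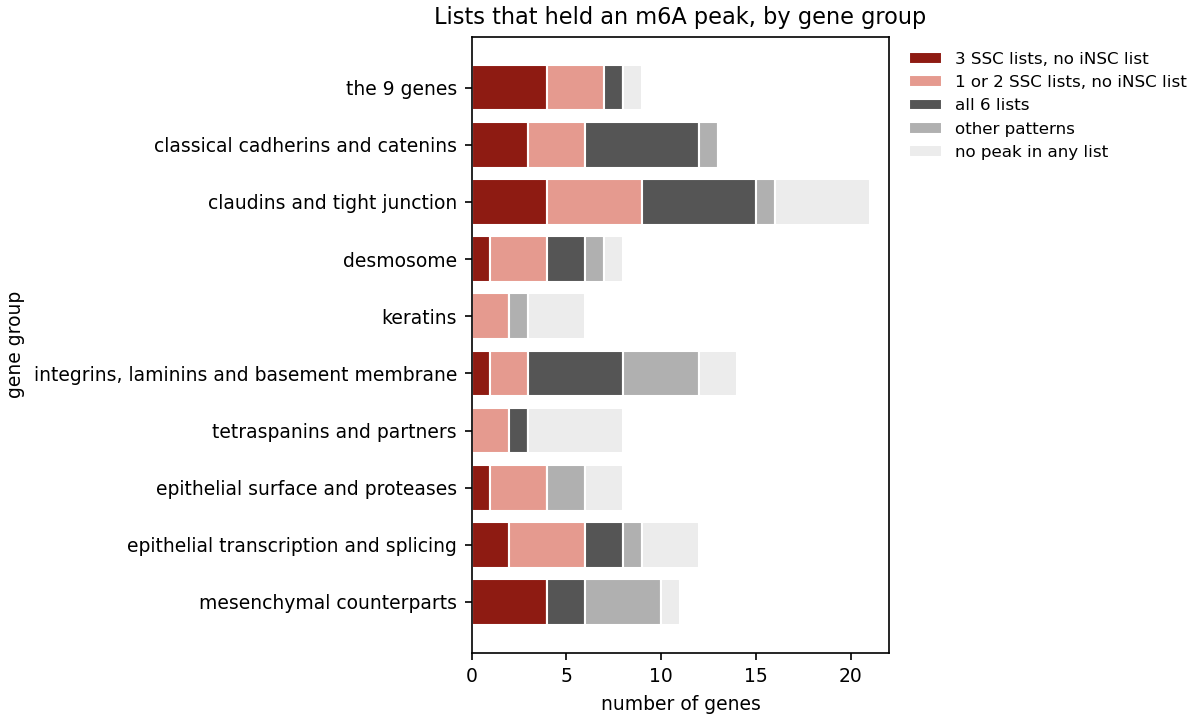
Number of genes (horizontal axis) in each gene group, split by which of the 6 lists held an m6A peak. The 9 genes are at the top, followed by 8 groups of related genes and the mesenchymal counterparts. Cdh2 and Cdh5 are counted in the cadherin group. Dark red marks genes in 3 SSC lists and no iNSC list, which number 4 of the 9 genes and 4 of the 11 mesenchymal counterparts. Over all genes with a peak the share was 11.4%.

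The pattern was not limited to genes of epithelia. Of 11 genes typical of mesenchymal cells, 10 held a peak and 4 were SSC-only, namely Vim, Zeb1, Twist1 and Acta2, and none was iNSC-only. Over all genes with a peak, 11.4% were SSC-only and 2.13% iNSC-only. These genes too were listed with earlier results known, so nothing is read from that comparison. Vim, encoding vimentin, held 1, 2 and 3 peaks in SSCs. Acta2, encoding smooth muscle actin, held 3, 3 and 4, and Twist1, a transcription factor gene, held 1, 1 and 2. Zeb2, the relative of Zeb1, held 8, 5 and 8 peaks in SSCs and 5, 5 and 4 in iNSCs. Snai2, encoding the repressor Slug, differed in the other direction with 0, 0 and 1 in SSCs and 2 in each iNSC list, where its best percentiles were 92.5, 91.2 and 91.9. Twist2 also held more in iNSCs, with 0 in each SSC list and 0, 2 and 1 in iNSCs, and so did Tgfbi, with 1, 0 and 0 against 2, 1 and 1.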

How the data were processed

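m6A immunoprecipitation libraries of 3 SSC and 3 iNSC samples were used. Per the submitters' processing notes, mm9 was the build, and HISAT2 2.0.4 and cutadapt 1.9.3 were among the tools; the peak caller is not given in the sources used here, but peak names begin with MACS. Each deposited list gives chromosome, start, end, name, score and strand, and the authors' score carries no stated unit. Gene and peak edges coincided on GRCm38 for 4.90% to 12.0% of peaks and for at most 0.0187% after a shift of 10000 bases, so positions are given on GRCm38.p6, 1-based. Peaks over several protein-coding genes went to the gene on the peak's strand, the strand of over 90% of peaks lying in that gene alone. Counting was tested on simulated data. The members and lists were chosen with earlier results of these data known. Genes were named by a fixed rule: all members, related genes that were SSC-only or share a complex with a member, and the nearest gene in ranking; Zeb2, Snai2, Twist2, Tgfbi, Cd9-ps and Krt8-ps were named after their values were seen, and 1 gene that the rule names is not reported here. No test was run. Python 3.11.15, numpy 2.4.6 and pandas 2.3.3 were used. Alternatives were the better-scoring 50% of peaks, equal list length, 50% peak overlap, merged entries, a minimum width, 2 of 3 lists, and leaving out each library.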

Additional observations from a re-analysis of the deposited data

How the results depend on the processing

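The number of SSC-only members was 4, and 2 with the upper 50% of scores kept, as at equal list length; in both Epcam and Dsp remained. The difference in member peaks per list, SSC minus iNSC, was 17.7, and 7 in the better-scoring 50%, 8 at equal length and 12.3 for peaks of at least 100 bases. The difference in members with a peak was 5.67, and 2.67 in the better-scoring 50% and 3 at equal length. SSC-only related genes numbered 12, 7 at equal length and 24 with a peak in 2 of 3 SSC lists. Over all genes with a peak, the SSC-only share was 11.4%. It was 10.2% in the better-scoring 50%, 6.98% at equal length and 22.7% with 2 of 3 SSC lists. Shorter lists take away mostly SSC peaks by construction. Leaving out 1 library gave 4 to 5 SSC-only members and 12 to 18 related genes. Over all genes, 1476 SSC-only genes became 2274 (18.1%) without SSC replicate 2. Leaving out a list removes a requirement of the pattern, so these counts could not fall and do not measure stability. Of 99 recomputed single-gene differences, 81 were unchanged or moved by less than the SD between SSC libraries. Of the others, 16 fell, 2 rose and 0 reversed. Many of these outcomes were fixed, so the 81 is no measure of stability. Krt18 had no peak, and leaving out an iNSC list could alter Itga6 alone. Itga6 was also the only gene whose difference could reverse. For Epcam, Cldn4 and Itga6 the SD was 0, so any change counted as a move. Merging nearby entries or requiring 50% of the peak in the span changed no member. No paired analysis was possible because no result comes from a test, and the labels do not say that same-numbered libraries share a culture. The depth of the lists is unknown.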
